A study of Homo sapiens with 6 samples.

Results

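The 45 genes described here are interferon-stimulated genes, a list of names taken as textbook targets of interferon signalling. The list, and its later division into roles, was chosen with earlier results of these data known. The genes were followed in H226, an established human cell line that the study describes as a squamous carcinoma of the lung. Transfection was with ASO_LINC#3, an antisense oligonucleotide directed against the long non-coding RNA SWINGN (ASO_LINC), or with a control oligonucleotide (ASO_CTRL), and polyadenylated RNA was sequenced 48 h later in 3 libraries per condition. Both conditions were thus transfected cells of 1 line, no untransfected cells were compared here, and a single targeting oligonucleotide was sequenced, so loss of the lncRNA and other effects of that oligonucleotide cannot be told apart. SWINGN itself is not analysed here. Of the 45 names, 44 had a row among the 17222 gene names counted, HERC5 was not analysed here, and 42 passed the filter on low counts out of 14660 genes that did. The members were divided into 8 sensors of foreign nucleic acid, 10 signalling factors and 27 effectors.

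Interferons are secreted proteins that bind receptors on the cell surface and activate Janus kinases, which phosphorylate transcription factors of the STAT family. A complex of STAT proteins with IRF9 binds the interferon-stimulated response element (ISRE), whereas STAT dimers bind the gamma-activated site (GAS). The products sense viral RNA, block viral entry, translation and replication, or feed back on the pathway itself, and many cells, tumour cells among them, keep a low level of these transcripts without infection.

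The promoters of the 4 members that passed the test are shown first, with exact matches to the core string of a response element marked. RefSeq windows of 300 bases, from 250 bases before the start site to 50 bases after it (GRCh38.p14), were found for 37 of the 45 members. Capitals mark matches to the ISRE core, GAAANNGAAA on one strand or TTTCNNTTTC on the other, in ISG20 (chr15:88638766-88639065, plus strand) and in IFI27 (chr14:94110486-94110785, plus strand). In OAS1 (chr12:112906712-112907011, plus strand) they mark the GAS core, TTCNNNGAA, which reads the same on both strands, and XAF1 (chr17:6755197-6755496, plus strand) held neither string. The IFI27 window also holds a GAS match, ttcctggaa, which lies across its ISRE matches and is not marked as such.
ISG20: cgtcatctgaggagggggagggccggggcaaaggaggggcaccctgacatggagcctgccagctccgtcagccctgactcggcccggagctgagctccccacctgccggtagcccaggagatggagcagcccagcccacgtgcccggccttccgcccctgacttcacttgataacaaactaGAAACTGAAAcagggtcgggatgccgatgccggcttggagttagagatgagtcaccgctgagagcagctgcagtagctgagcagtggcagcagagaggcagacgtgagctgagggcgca
IFI27: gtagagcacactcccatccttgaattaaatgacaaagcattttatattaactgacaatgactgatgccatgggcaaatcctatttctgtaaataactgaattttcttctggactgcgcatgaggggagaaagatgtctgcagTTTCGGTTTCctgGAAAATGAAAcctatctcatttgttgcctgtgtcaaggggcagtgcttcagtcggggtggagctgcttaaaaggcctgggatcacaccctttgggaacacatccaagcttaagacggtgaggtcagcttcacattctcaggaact
OAS1: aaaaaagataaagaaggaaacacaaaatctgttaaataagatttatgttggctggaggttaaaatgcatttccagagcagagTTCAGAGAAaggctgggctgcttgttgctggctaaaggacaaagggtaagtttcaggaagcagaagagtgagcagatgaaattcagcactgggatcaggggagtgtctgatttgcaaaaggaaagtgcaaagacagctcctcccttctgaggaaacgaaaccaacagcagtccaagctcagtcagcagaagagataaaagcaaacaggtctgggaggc
XAF1: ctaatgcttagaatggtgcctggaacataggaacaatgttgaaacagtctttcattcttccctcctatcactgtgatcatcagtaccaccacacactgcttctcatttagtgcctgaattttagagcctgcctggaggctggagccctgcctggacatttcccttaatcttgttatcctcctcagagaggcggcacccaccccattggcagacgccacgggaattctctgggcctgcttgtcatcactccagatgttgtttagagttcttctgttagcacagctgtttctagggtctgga
These windows show only whether the letters are present: ISG20 held 1 ISRE match, starting 69 bases before the start site, and IFI27 held 2, starting 108 and 95 bases before it. The OAS1 window also holds gaaacgaaa, with 1 base between its units where the ISRE string has 2, and it was not counted. Another XAF1 window, not shown (chr17:6755796-6756095), holds the same letters. Absence of a match is thus not absence of the element.

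The same core occurred at members that did not pass the test, and 30 bases around it are shown for 6 of them, of which SAMD9, IFIT1 and ISG15 had a fitted log2 fold change above 0 in the knockdown and RSAD2, PARP9 and DTX3L one below 0. PARP9 and DTX3L lie head to head on opposite strands, and their windows hold 1 and the same match (chr3:122564322-122564351), printed once for each strand.
SAMD9: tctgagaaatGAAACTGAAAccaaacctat
IFIT1: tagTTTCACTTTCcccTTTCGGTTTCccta
ISG15: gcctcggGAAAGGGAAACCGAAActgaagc
RSAD2: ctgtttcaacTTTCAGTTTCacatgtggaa
PARP9: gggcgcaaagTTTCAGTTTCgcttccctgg
DTX3L: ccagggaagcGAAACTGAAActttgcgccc
The stretches lie at chr7:93118096-93118125 (SAMD9, minus strand), chr10:89392504-89392533 (IFIT1, plus strand), chr1:1013377-1013406 (ISG15, plus strand) and chr2:6877622-6877651 (RSAD2, plus strand). In all, 24 of the 37 members with a window held an ISRE match (64.9%), against 3.86% of the 9575 tested genes with a window and 4.38% of all 27305 genes with one. GAS matches were found in 11 of the 37 members (29.7%) and in 8.32% of the tested genes. A match of one kind may overlap a match of the other.

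ASO_LINC replicate 3 was the shallowest library, with 3686828 reads on genes, and ASO_CTRL replicate 3 the deepest, with 10546786. That library also stood apart: a chi-square of its counts against those of the other ASO_LINC libraries was 13 and 14 per degree of freedom, against 2.5 between ASO_LINC replicates 1 and 2, and between 6.94 and 11.9 among the ASO_CTRL libraries. The labels number the libraries as replicates without naming separate cultures, so p-values measure the spread between these libraries, and in bulk RNA fewer cells with a transcript and less transcript per cell cannot be told apart. Of 6 squamous markers, TP63, KRT14, SOX2 and DSG3 were not analysed here. KRT5 was at 94.4, 117 and 98.2 CPM (the reads of a gene scaled to a fixed number of reads on genes) in ASO_CTRL and 66.6, 62.6 and 77.8 CPM in ASO_LINC, and KRT6A, removed by the filter, was at most at 0.0954 CPM in ASO_CTRL and 2.06 CPM in ASO_LINC. All 4 mesothelial markers had counts. Mean levels in ASO_CTRL and ASO_LINC were 601 and 154 CPM for CALB2 and 49.4 and 26.4 CPM for UPK3B. They were 46.02 and 36.6 CPM for WT1 and 29.1 and 31.1 CPM for MSLN. The log2 fold change was -1.97 for CALB2, which was called lower. It was -0.92 for UPK3B, -0.32 for WT1 and 0.06 for MSLN, which were not called.

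The share of interferon-stimulated genes that passed the test is set beside that of all tested genes. A gene was called at a Benjamini-Hochberg adjusted p below 0.01 in edgeR's quasi-likelihood test over all tested genes, with a log2 fold change (ASO_LINC over ASO_CTRL) beyond 0.5. By this rule 4 of the 42 tested members were called (9.52%), against 7.54% of all tested genes. All 4 rose in the knockdown: ISG20, OAS1, IFI27 and XAF1. The share of all genes called higher was 4.91%. No member was called lower by edgeR, DESeq2 or limma-voom, against 2.63% of all genes in edgeR, and 3 members were lower at an unadjusted p below 0.05 in edgeR. The fitted log2 fold change was above 0 for 28 members and below 0 for 14, with a median of 0.23 beside a median of -0.0027 over all tested genes. At an unadjusted p below 0.05, 15 members were higher and 3 lower, and the same 18 genes were those whose CPM did not overlap between the conditions. Of the 14660 tested genes, 2506 were higher and 2246 lower at that unadjusted p in edgeR. Among all tested genes, 18.7% had every ASO_LINC library above every ASO_CTRL library and 17.3% had every one below.

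**Figure D1:**
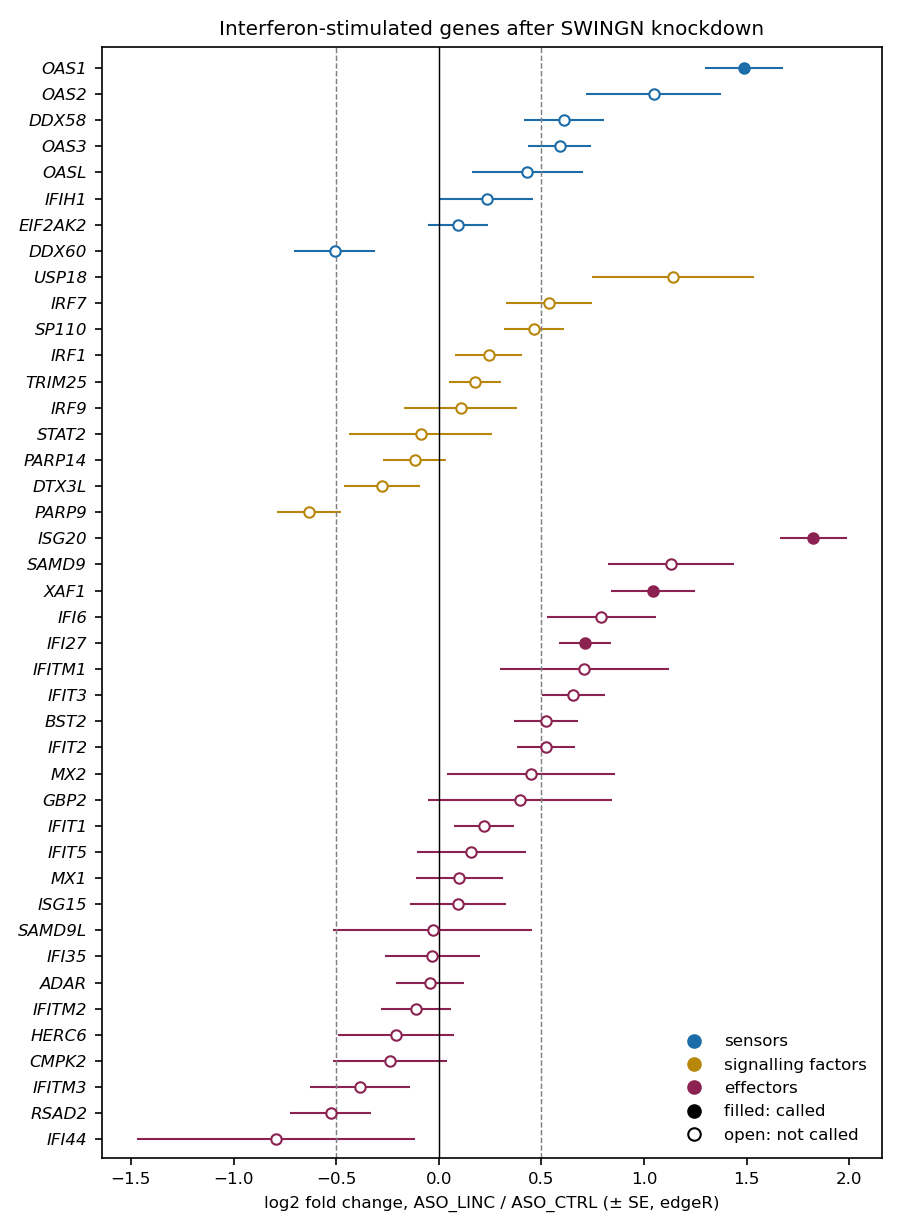
Fitted log2 fold change (ASO_LINC over ASO_CTRL) with its standard error for the 42 tested interferon-stimulated genes, ordered within sensors, signalling factors and effectors, with dashed lines at the bound of 0.5 in each direction. ISG20, OAS1, XAF1 and IFI27, the filled points, are the members called, and IFI44 at -0.79 has the lowest value and the widest error.

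OAS1, an oligoadenylate synthetase that senses double-stranded RNA and makes the messenger that activates RNase L, was the only sensor called. It was measured at 10.5, 11.4 and 8.78 CPM in ASO_CTRL replicates 1, 2 and 3 and at 26.3, 25.2 and 34.4 CPM in ASO_LINC replicates 1, 2 and 3. Every knockdown library lay above every control library, and the fitted log2 fold change was 1.49 ± 0.19 (SE), a fold of 2.80, with an edgeR adjusted p of 0.000567. The gene lies at chr12:113343661-113371024 on the plus strand (GRCh37). ISG20, an exonuclease of single-stranded RNA, showed the highest fold change of the 42 members. Its level was 29.2, 34.9 and 31.00 CPM in ASO_CTRL and 103, 98.4 and 136 CPM in ASO_LINC, again without overlap. The log2 fold change was 1.82 ± 0.16, a fold of 3.54 (edgeR adjusted p = 6.83e-05), and the gene lies at chr15:89178901-89199714 on the plus strand (GRCh37).

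IFI27, a small mitochondrial protein whose transcript is widely used as a marker of interferon exposure, was measured at 253, 229 and 233 CPM in ASO_CTRL and at 343, 407 and 421 CPM in ASO_LINC. The lowest knockdown library was above the highest control library, with a log2 fold change of 0.71 ± 0.13 (edgeR adjusted p = 0.00404) at chr14:94571182-94583032, plus strand (GRCh37). XAF1, an antagonist of the inhibitor of apoptosis XIAP, was measured at 15.9, 11.9 and 13.7 CPM in ASO_CTRL and at 24.1, 36.6 and 24.9 CPM in ASO_LINC, with ASO_LINC replicate 2 the highest. The conditions did not overlap and the log2 fold change was 1.04 ± 0.20 (edgeR adjusted p = 0.00649) at chr17:6658766-6678966, plus strand (GRCh37). ISG20 and OAS1 were called in each of the 6 fits that left out 1 library, with adjusted p-values of at most 0.00152 and 0.00734. IFI27 was called in 2 of these 6 fits and XAF1 in 1, and their adjusted p-values went up to 0.0317 and 0.0387 when ASO_CTRL replicate 3 was left out. No 75-base window of ISG20, IFI27 or XAF1 transcripts and 0.281% of those of OAS1 occurred in another annotated gene. An unnamed gene overlaps OAS1, OAS2 and OAS3 on the opposite strand, and 22 of the 42 tested members overlap a gene on the opposite strand in all, IFIT1, IFIT2 and IFIT3 through LIPA. These overlaps are of whole gene spans, introns included, and exons were not compared. With the strand setting not stated, reads from a partner could count for a member where their exons overlap.

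**Figure D2:**
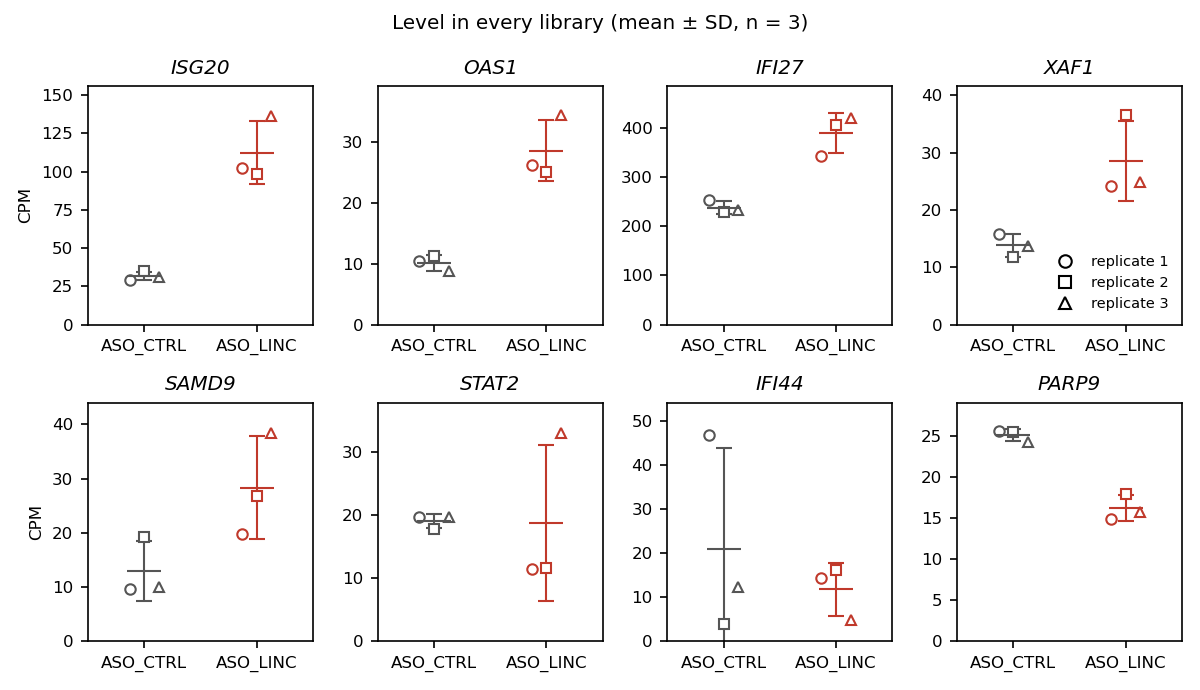
CPM of 8 members in every library, with circles, squares and triangles for replicates 1, 2 and 3 and the bar and whiskers for the mean and SD of 3 libraries. The 4 members called, on the upper row, do not overlap between the conditions, whereas in STAT2 the triangle of ASO_LINC replicate 3 lies at 33.1 CPM and the other knockdown libraries at 11.5 and 11.6 CPM.

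The remaining sensors comprise the other oligoadenylate synthetases, the RIG-I-like helicases DDX58 (RIG-I) and IFIH1 (MDA5), the helicase DDX60, which assists RIG-I, and the kinase EIF2AK2 (PKR), which stops translation when it binds double-stranded RNA. The fitted log2 fold change was above 0 for 7 of the 8 sensors, with a median of 0.51, and 1 of 8 was called (12.5%). OAS2 was measured at 4.04, 3.44 and 1.81 CPM in ASO_CTRL and 6.03, 7.70 and 4.61 CPM in ASO_LINC (log2 fold change 1.05 ± 0.33, edgeR adjusted p = 0.0499). OAS3 was measured at 33.1, 38.4 and 32.1 CPM in ASO_CTRL and 44.8, 51.2 and 60.2 CPM in ASO_LINC (log2 fold change 0.59 ± 0.15, edgeR adjusted p = 0.0244). Both had every knockdown library above every control library without passing the threshold of 0.01. DDX58 was measured at 7.68, 9.81 and 8.49 CPM in ASO_CTRL and 14.4, 11.3 and 13.8 CPM in ASO_LINC, likewise without overlap (log2 fold change 0.61 ± 0.19, edgeR adjusted p = 0.0527). Of the 75-base windows in DDX58 transcripts, 88.6% also occur in an unnamed annotated gene that overlaps it on the same strand, so its counts are uncertain.

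EIF2AK2, at 87.8, 85.7 and 85.2 CPM in ASO_CTRL and 103, 97.7 and 74.01 CPM in ASO_LINC, overlapped between the conditions (log2 fold change 0.09 ± 0.15, edgeR adjusted p = 0.707). ASO_LINC replicate 3 was the lowest of the 6 libraries for it. IFIH1 had a log2 fold change of 0.23 ± 0.23 and OASL, a catalytically inactive relative of the synthetases, one of 0.43 ± 0.27, both with overlapping conditions. In OASL, ASO_LINC replicate 3 stood at 44.5 CPM against 24.1 and 21.05 CPM in the other knockdown libraries. DDX60 was the only sensor with a negative value, -0.51 ± 0.20, from 13.6, 14.6 and 16.5 CPM in ASO_CTRL to 10.1, 12.7 and 8.40 CPM in ASO_LINC (edgeR adjusted p = 0.101).

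Among the 10 signalling factors, none was called by edgeR or DESeq2, 6 had a log2 fold change above 0, and the median was 0.14. At an unadjusted p below 0.05 in edgeR, 3 were higher (IRF7, USP18 and SP110) and 1 was lower (PARP9), beside 2506 and 2246 of all 14660 tested genes. PARP9, which pairs with the ubiquitin ligase DTX3L to enhance interferon signalling, was measured at 25.6, 25.5 and 24.2 CPM in ASO_CTRL and 14.8, 17.97 and 15.7 CPM in ASO_LINC. All 3 knockdown libraries lay below the controls, with a log2 fold change of -0.63 ± 0.16 (edgeR adjusted p = 0.0191). Its partner DTX3L had -0.28 ± 0.18 and PARP14, a related enzyme further along the chromosome, -0.12 ± 0.15 on the log2 scale, both with overlapping conditions. The annotated spans of PARP9 and DTX3L overlap on opposite strands, and the strand setting of the counting is not stated, so reads from the overlap could count for either gene.

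USP18, the protease that removes ISG15 from proteins and restrains the interferon receptor, was measured at 1.48, 1.38 and 0.668 CPM in ASO_CTRL and 2.06, 2.40 and 3.25 CPM in ASO_LINC. The conditions did not overlap (log2 fold change 1.14 ± 0.39, edgeR adjusted p = 0.0692), at a level where 1 read was worth between 0.0954 and 0.271 CPM. SP110, a nuclear body protein, was measured at 52.5, 50.4 and 55.4 CPM in ASO_CTRL and 62.9, 71.2 and 85.1 CPM in ASO_LINC (log2 fold change 0.46 ± 0.15, edgeR adjusted p = 0.0504). IRF7, the transcription factor that amplifies interferon production, was measured at 47.4, 38.5 and 41.1 CPM in ASO_CTRL and 51.4, 48.8 and 85.9 CPM in ASO_LINC (log2 fold change 0.54 ± 0.21, edgeR adjusted p = 0.103). Its lowest knockdown library, replicate 2, lay just above the highest control library and replicate 3 far above the rest, and without ASO_LINC replicate 3 the log2 fold change was 0.24. TRIM25, the ubiquitin ligase that activates RIG-I, was measured at 93.7, 88.6 and 85.5 CPM in ASO_CTRL and 92.9, 109.5 and 100.3 CPM in ASO_LINC and overlapped (log2 fold change 0.18 ± 0.13, edgeR adjusted p = 0.368).

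STAT2, the subunit particular to the ISRE-binding complex, split the knockdown libraries. It was measured at 19.7, 17.7 and 19.7 CPM in ASO_CTRL and 11.5, 11.6 and 33.1 CPM in ASO_LINC, so replicates 1 and 2 lay below all controls and replicate 3 above all of them. The log2 fold change was -0.09 ± 0.35 over the 6 libraries and -0.73 ± 0.16 without ASO_LINC replicate 3 (edgeR adjusted p = 0.00488). That p-value holds only with the library that differs left out, where 17.2% of all tested genes were called. STAT2 was called in no other fit. IRF9, its DNA-binding partner, had 0.11 ± 0.28 and the transcription factor IRF1 0.24 ± 0.16 on the log2 scale, with overlapping conditions. Of the 75-base windows in IRF9 transcripts, 19.1% occur in another annotated gene.

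Of the 27 effectors, 24 were tested, 15 of them had a log2 fold change above 0, 3 were called (12.5%), and the median was 0.19. IFI44L, with 0.191 to 0.882 CPM, and GBP1, with 0.344 to 1.32 CPM, were removed by the filter. The IFIT proteins, which bind viral RNA that lacks host cap methylation, had log2 fold changes from 0.16 to 0.66. IFIT3 was measured at 31.4, 41.3 and 42.4 CPM in ASO_CTRL and 55.99, 63.1 and 62.4 CPM in ASO_LINC, without overlap (log2 fold change 0.66 ± 0.15, edgeR adjusted p = 0.0146). IFIT2 was measured at 30.3, 32.7 and 31.9 CPM in ASO_CTRL and 49.7, 46.5 and 39.6 CPM in ASO_LINC, also without overlap (log2 fold change 0.52 ± 0.14, edgeR adjusted p = 0.0278). Both were past 0.05 and neither was past 0.01, and 9.73% of the 75-base windows of IFIT2 occur in another annotated gene. IFIT1 had 0.22 ± 0.14 and IFIT5 0.16 ± 0.27 on the log2 scale, with overlapping conditions.

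The IFITM proteins, which sit in membranes and hinder viral entry, had values in both directions. IFITM3 was measured at 1119, 1327 and 701 CPM in ASO_CTRL and 662, 673 and 1078 CPM in ASO_LINC, so ASO_LINC replicate 3 lay within the controls and the other knockdown libraries below them (log2 fold change -0.38 ± 0.24, edgeR adjusted p = 0.308). IFITM2 was measured at 366, 463 and 307 CPM in ASO_CTRL and 305, 336 and 410.5 CPM in ASO_LINC, with overlap (log2 fold change -0.11 ± 0.17, edgeR adjusted p = 0.694). IFITM1, at 2.96, 2.41 and 2.19 CPM in ASO_CTRL and 1.76, 5.65 and 5.42 CPM in ASO_LINC, overlapped as well (log2 fold change 0.71 ± 0.41). Of the 75-base windows, 36.1% of those of IFITM1 and 7.08% of those of IFITM2 occur in another annotated gene, most often an unnamed one that overlaps both on the same strand, and 10.6% of those of IFITM3 do, most often in IFITM1, so the counts of all 3 are uncertain.

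The effectors described next were picked after their values were seen. SAMD9, a restriction factor of poxviruses, was measured at 9.56, 19.3 and 10.02 CPM in ASO_CTRL and 19.7, 26.7 and 38.5 CPM in ASO_LINC. The lowest knockdown library was just above the highest control library, replicate 2 (log2 fold change 1.13 ± 0.31, edgeR adjusted p = 0.0279). IFI6, a mitochondrial protein, was measured at 32.6, 29.3 and 28.4 CPM in ASO_CTRL and 37.6, 39.4 and 81.6 CPM in ASO_LINC (log2 fold change 0.79 ± 0.27, edgeR adjusted p = 0.0622). BST2 (tetherin), which holds budding virions on the cell surface, was measured at 19.5, 21.5 and 18.8 CPM in ASO_CTRL and 25.6, 28.9 and 31.7 CPM in ASO_LINC (log2 fold change 0.52 ± 0.16, edgeR adjusted p = 0.04). None of these 3 overlapped between the conditions, and IFI6 was far higher in ASO_LINC replicate 3 than in the other knockdown libraries, without which its log2 fold change was 0.36. Of the windows of IFI6, 16.8% occur in another annotated gene.

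RSAD2 (viperin), an enzyme that makes a chain-terminating nucleotide, had the only effector levels that lay lower in every knockdown library, 16.6, 18.9 and 16.98 CPM in ASO_CTRL and 13.96, 13.01 and 8.68 CPM in ASO_LINC (log2 fold change -0.53 ± 0.20, edgeR adjusted p = 0.0899). IFI44 was the least even member, with 46.9, 3.79 and 12.3 CPM in ASO_CTRL and 14.3, 16.1 and 4.88 CPM in ASO_LINC, and its spread among the controls exceeded the difference between the conditions (log2 fold change -0.79 ± 0.68). ISG15, the ubiquitin-like modifier, was measured at 149, 178 and 143 CPM in ASO_CTRL and 109, 157 and 238 CPM in ASO_LINC, so the knockdown libraries spanned the whole range of the controls (log2 fold change 0.09 ± 0.24). The dynamin-like GTPases MX1 (0.10 ± 0.21) and MX2 (0.45 ± 0.41), the RNA-editing enzyme ADAR (-0.04 ± 0.17) and IFI35 (-0.03 ± 0.23) overlapped between the conditions, with log2 fold changes and SE in brackets. The same was true of SAMD9L (-0.03 ± 0.48), the ISG15 ligase relative HERC6 (-0.21 ± 0.28), the nucleotide kinase CMPK2 (-0.24 ± 0.28) and the guanylate-binding protein GBP2 (0.40 ± 0.45).

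Many members are neighbours on their chromosomes: 25 of the 45 lay in 10 clusters with gaps of at most 200000 bases (GRCh37) and in 7 of these more than 1 member was tested. In the OAS cluster on chromosome 12, OAS1 rose, with a log2 fold change of 1.49, while OAS3, which starts 4831 bases after its end, had 0.59 and OAS2, a further 1934 bases on, had 1.05. In the IFIT cluster on chromosome 10 the values were 0.52 for IFIT2, 0.66 for IFIT3, 0.22 for IFIT1 and 0.16 for IFIT5. In the IFITM cluster on chromosome 11, IFITM2 had -0.11, IFITM1 0.71 and IFITM3 -0.38, and on chromosome 21 MX2 had 0.45 and MX1 0.10. The paralogs SAMD9 and SAMD9L on chromosome 7, 12032 bases apart, had 1.13 and -0.03. RSAD2 and CMPK2 on chromosome 2, which overlap on opposite strands by 1079 bases and are therefore uncertain, had -0.53 and -0.24, and PARP9, DTX3L and PARP14 on chromosome 3 had -0.63, -0.28 and -0.12. Whether the values within any cluster differ from each other was not tested.

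The knockdown libraries were also compared one at a time, as log2 CPM minus the mean of the ASO_CTRL libraries. The median change of the 42 members was 0.15 in ASO_LINC replicate 1, 0.29 in replicate 2 and 0.53 in replicate 3, while the medians over all tested genes were -0.004, -0.0071 and 0.0008. Above 0.5 lay 11, 13 and 22 members in replicates 1, 2 and 3, and below -0.5 lay 6, 2 and 4. Of all tested genes, 17.6%, 18.6% and 18.1% lay above 0.5 in these libraries and 16.9%, 19.1% and 16.8% below -0.5. The sign was the same in all 3 libraries for 22 members (52.4%), against 57.2% of all tested genes. In 8 members the change was negative in replicates 1 and 2 and positive in replicate 3, and these were STAT2, IFI35, IFITM2, IFITM3, MX1, HERC6, ADAR and CMPK2. ASO_LINC replicate 3 was the highest of the 6 libraries for 19 members, and it lay more than 0.5 above the mean of the other knockdown libraries in 13 members and more than 0.5 below it in 5. For these counts and that of the 8 members, the share of all tested genes was not computed. ASO_LINC replicate 3 stood apart over all genes as well, so the counts cannot be read as particular to the members.

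Without that library the median over the members was 0.22, 26 of the 42 tested had a value above 0, and 8 were called, against 17.2% of all genes tested in the same fit. In 18 members the value changed by over 1.5 times or in sign without it: ISG15 went from 0.09 to -0.24, MX1 from 0.10 to -0.15, OASL from 0.43 to 0.05, MX2 from 0.45 to 0.01 and IFITM3 from -0.38 to -0.65. The share of all tested genes that changed as much was not computed. The members called higher without that library were ISG20, OAS1, IFI27, XAF1, IFIT2 and IFIT3, and those called lower were PARP9 and STAT2. IFIT2 then had a log2 fold change of 0.61 ± 0.12 (edgeR adjusted p = 0.00227), IFIT3 0.63 ± 0.14 (edgeR adjusted p = 0.00602) and PARP9 -0.61 ± 0.15 (edgeR adjusted p = 0.00842). Markers of simple epithelium showed the same split: KRT18 was at 4974, 5259 and 5026 CPM in ASO_CTRL and 2924, 2881 and 5259.8 CPM in ASO_LINC, and the 4 measured of 6 such markers summed to between 11700 and 12640 CPM in ASO_CTRL and between 7103 and 12430 CPM in ASO_LINC. The part of that split, and of the lower depth, in the members' values was not tested.

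**Figure D3:**
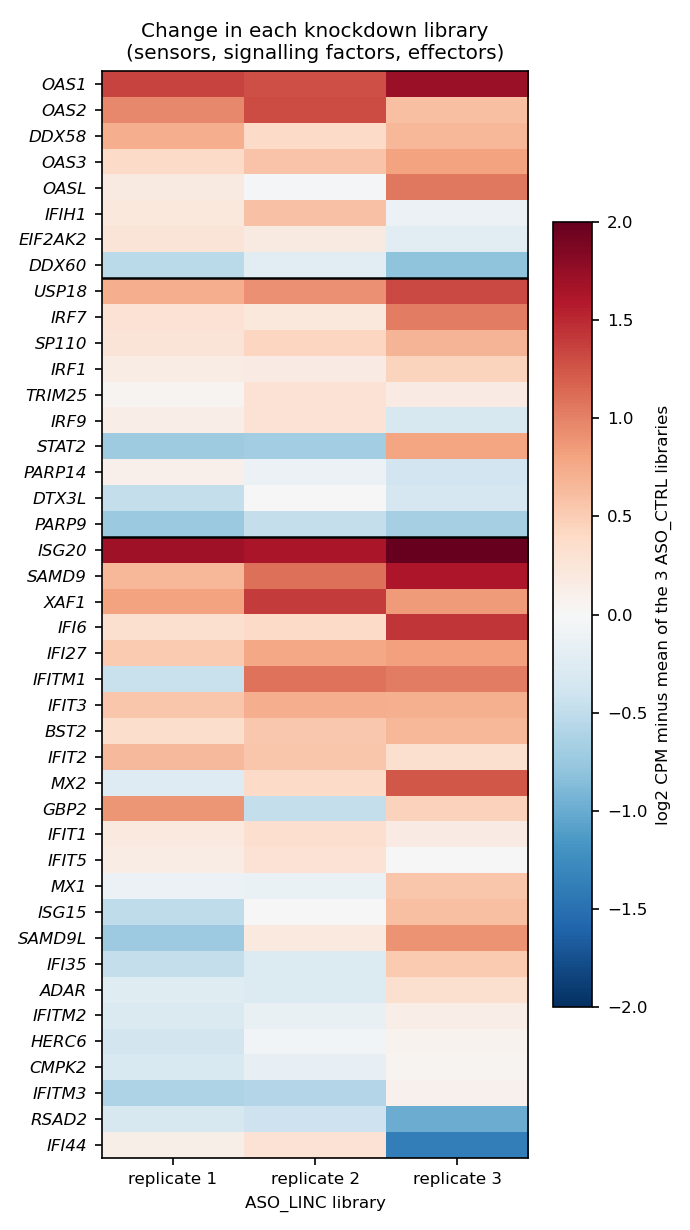
Heat map of log2 CPM minus the mean of the ASO_CTRL libraries for the 42 tested members (rows, in the order of the fold-change plot, with black lines between sensors, signalling factors and effectors) in the 3 ASO_LINC libraries (columns). ISG20 and OAS1 are above 1.2 in every column, while STAT2, IFI35 and IFITM3 turn from negative in replicates 1 and 2 to positive in replicate 3.

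Matches to the ISRE string and the change were then set side by side. Among the 21 tested members with an ISRE match the median log2 fold change was 0.16, with values from -0.79 (IFI44) to 1.82 (ISG20) and 2 members called. Among the 13 tested members whose windows held no match the median was 0.11, with values from -0.24 to 1.49 and 2 members called. The 8 members without a window (OAS2, OASL, IRF7, USP18, IFIT2, IFITM2, MX2 and GBP2) had a median of 0.49. With a GAS match the median was 0.24 over 11 members, and without one 0.09 over 23. The windows of the members held 44 distinct ISRE sites, and 37 of them started within the 150 bases before a start site. These values are a description without a test, and the range was wide with and without a match. Only exact strings were searched, so a member without a match may hold a near form, as OAS1 does with gaaacgaaa.

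**Figure D4:**
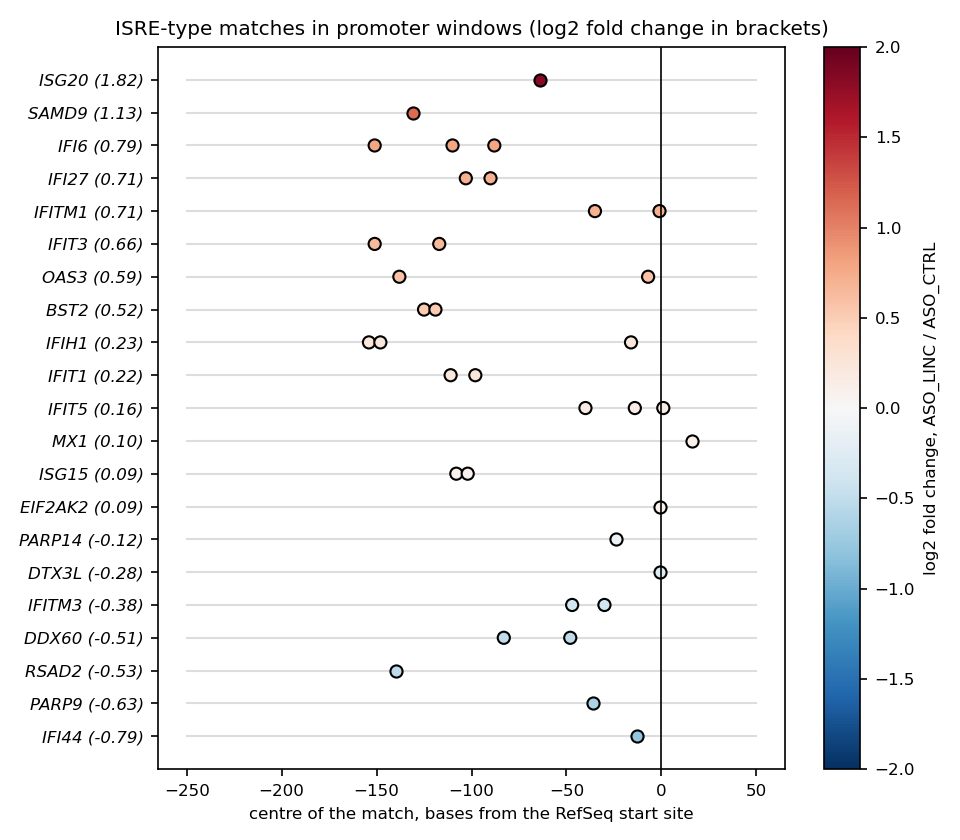
Position of each ISRE core match (centre, in bases from the RefSeq start site) in the first window with a match of the 21 tested members that have one, ordered by and coloured for log2 fold change, which stands in brackets. Members at both ends of the order, ISG20 at 1.82 and IFI44 at -0.79, hold a match within 100 bases before the start site.

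The rest of the interferon pathway was described from 102 further names, of which 69 had counts and 65 were tested. Of these, 7 were called higher and none lower (10.8% called in edgeR, against 7.54% of all tested genes). At an unadjusted p below 0.05 in edgeR, 15 of the 65 were higher and 5 lower, beside 2506 and 2246 of all 14660 tested genes. PSMB9, a subunit of the immunoproteasome, was lower at an adjusted p of 0.0112 in edgeR (log2 fold change -0.58 ± 0.13) and was called lower by DESeq2 and limma-voom. The median log2 fold change of the 65 genes was 0.04. For the 33 other interferon-stimulated genes tested among them it was 0.01, with 17 values above 0 and 16 below. The interferon ligands were not analysed here. None of the 5 tested receptor chains was called: IFNAR1 had -0.08 ± 0.15, IFNAR2 -0.09 ± 0.15, IFNGR1 -0.50 ± 0.19, IFNGR2 0.28 ± 0.14 and IL10RB -0.26 ± 0.12 on the log2 scale. At an unadjusted p below 0.05, none of the receptors was higher and 1, IFNGR1, was lower in edgeR. Of the kinases below them, JAK1 rose from 44.04, 38.7 and 36.9 CPM in ASO_CTRL to 65.99, 65.5 and 66.2 CPM in ASO_LINC (log2 fold change 0.72 ± 0.13, edgeR adjusted p = 0.0044). TYK2 had 0.48 ± 0.20, and JAK2, removed by the filter, was at 0.135, 0.688 and 0.191 CPM in ASO_CTRL and 1.76, 3.25 and 0.813 CPM in ASO_LINC. STAT3, a related transcription factor that other cytokines also activate, had 0.04 ± 0.13 on the log2 scale and was not called.

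The other pathway genes called came from several branches. TNFAIP3 (A20), an inhibitor of NF-κB signalling, rose from 57.5, 46.5 and 52.7 CPM in ASO_CTRL to 149, 145 and 113 CPM in ASO_LINC (log2 fold change 1.38 ± 0.15, edgeR adjusted p = 0.000248). TMEM173 (STING), the adapter of cytosolic DNA sensing, rose from 18.7, 20.6 and 17.7 CPM in ASO_CTRL to 40.6, 39.4 and 50.97 CPM in ASO_LINC (log2 fold change 1.19 ± 0.16, edgeR adjusted p = 0.000739). Its upstream enzyme MB21D1 (cGAS) had 0.31 ± 0.16, and MAVS, the adapter of RIG-I and MDA5, had -0.28 ± 0.20; neither was called. The remaining 4 were further interferon-stimulated genes: the nuclear body protein SP100 (0.78 ± 0.13), the guanylate-binding protein GBP3 (0.84 ± 0.17), PARP12 (0.75 ± 0.14) and SERPING1, the inhibitor of the first complement component (0.85 ± 0.12), with edgeR adjusted p-values between 0.00121 and 0.00806. TNFAIP3 and TMEM173 were called in all 6 fits that left out 1 library and SERPING1 in 5, whereas JAK1, SP100, GBP3 and PARP12 were called in 1, that without ASO_LINC replicate 3. MB21D1, MAVS and PSMB9 were picked after their values were seen.

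**Figure D5:**
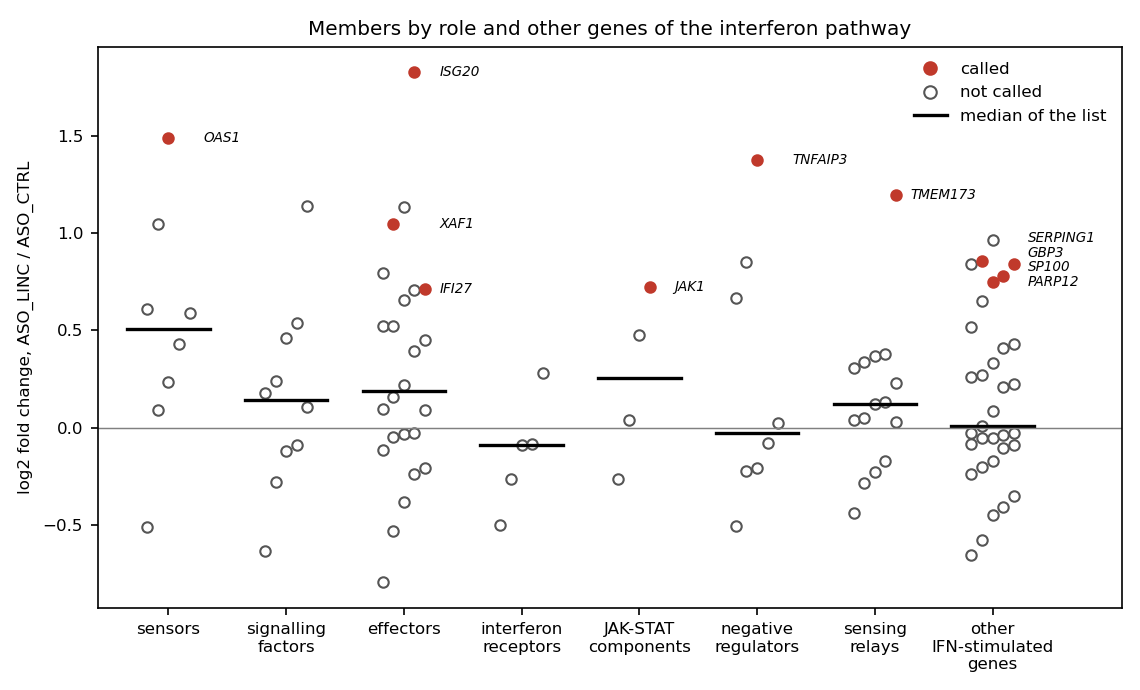
Log2 fold change (ASO_LINC over ASO_CTRL) of each tested member by role and of each tested gene of the other pathway lists, with a bar at the median of each list and filled points for genes called. The medians lie between -0.09 for the receptors and 0.51 for the sensors, and the genes called, all higher, are spread over 6 of the 8 lists.

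Leukocyte transcripts were looked for because blood cells can carry high levels of interferon-stimulated genes. Among leukocyte markers, PTPRC, CD3E and CLEC4C were not analysed here, and CD14, CD68 and IL3RA together summed to between 3.23 and 3.79 CPM in ASO_CTRL and between 3.97 and 10.8 CPM in ASO_LINC. CD68, a lysosomal protein, was at 1.08, 1.89 and 1.14 CPM in ASO_CTRL and 2.79, 3.08 and 6.51 CPM in ASO_LINC and was not called (edgeR adjusted p = 0.0265). The endothelial markers PECAM1, VWF and CDH5 were not analysed here. CD14, a receptor of monocytes, was at 1.48, 1.72 and 2.10 CPM in ASO_CTRL and 0.735, 1.54 and 2.17 CPM in ASO_LINC, with overlap and a log2 fold change of -0.38 ± 0.42, and IL3RA was removed by the filter. The part of these transcripts in the members' values was not tested.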

How the data were processed

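Counts were analysed for 6 RNA-seq libraries of H226 cells, 3 transfected with ASO_CTRL and 3 with ASO_LINC#3, grouped and numbered by their titles. The authors sequenced single reads of 75 bases from oligo-dT-primed cDNA, used STAR for alignment to hg19 and deposited, for each gene name, the raw count of reads, not normalized and not pooled. Counter, annotation and strand setting are not given in the sources used here. The methods paragraph on RNA-seq names another cell type, and the labels' cell line was used. Reads assigned to no gene, from 24.8% to 28.1% of each library, were left out, and counts on genes ranged from 3686828 to 10546786. The table has 0 columns of other samples.

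Genes were kept by filterByExpr and scaled by TMM, and the conditions were compared with the quasi-likelihood F-test of edgeR 4.0.16 in R 4.3.3, with the thresholds of the study's methods (adjusted p below 0.01, log2 fold change beyond 0.5) and no block. The SE is the log2 fold change divided by the square root of F. Changes of single libraries used a prior count of 2. An exact two-sided permutation test of 3 against 3 libraries cannot go below p = 0.1 and was not used to call genes. Members, roles and lists were chosen with earlier results of these data known. Members called and, in each role, the 4 with the smallest p and the 2 with the highest mean CPM were given in full by rule, and further values of the other members were picked after they were seen. Results for some listed names are not reported here. Alternatives were other scalings, filters and thresholds, robust dispersion, DESeq2 1.42.0, limma-voom (limma 3.58.1), a replicate block, each library left out and, added after seeing the data, removal of each library's trend with GC content and length. Positions and shared 75-base windows were read from GENCODE genes lifted to GRCh37, which may differ from the authors', and promoters from RefSeq (GRCh38.p14). All 45 members matched, and 37 had a promoter window.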

Additional observations from a re-analysis of the deposited data

How the results depend on the processing

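Of the 287 values under an alternative of the 16 members given in full by rule, 263 kept their direction and side of the threshold, 9 crossed into it, 11 out of it, and 4 reversed: EIF2AK2 to -0.001 without ASO_LINC replicate 1 (0.221 without ASO_LINC replicate 3), -0.005 after the GC and length correction and -0.007 after it with the replicate block, and IFITM2 to 0.066 without ASO_CTRL replicate 2 (-0.244 without ASO_CTRL replicate 3). Most of the 16 were not called in the main fit, and staying uncalled counted as kept. The 11 that crossed out were all values of IFI27 and XAF1. The number of members called, 4, was between 2 and 8 when each library was left out (called higher 2 to 6, called lower 0 to 2). Of all tested genes, between 2.42% (without ASO_CTRL replicate 3) and 17.2% (without ASO_LINC replicate 3) were called in these fits, against 7.54% in the main fit. ISG20 and OAS1 were called in all of these fits, and they alone without ASO_CTRL replicate 1, 2 or 3 or ASO_LINC replicate 2, whereas 8 members were called without ASO_LINC replicate 3. At an adjusted p below 0.05 the number was 11 (10 higher, 1 lower), beside 16.8% of all tested genes. With DESeq2 it was 6, beside 10.9% of all tested genes. After the GC and length correction, chosen after seeing the data, it was 8 (7 higher, 1 lower), beside 11.7% of all tested genes. BST2, IFI6, IRF7 and PARP9 then joined the 4. The other pathway genes called, 7, numbered 12 at an adjusted p below 0.05 (11 higher, and PSMB9 lower) and between 2 (without ASO_CTRL replicate 3) and 16 with each library left out. The shares of all tested genes in these fits are those given above. The 16, without ASO_LINC replicate 3, were 12 higher and 4 lower (IFI16, NLRX1, PSMB8 and PSMB9). PSMB9 was also called lower with upper quartile scaling, DESeq2, limma-voom and the GC and length correction. The median over the members was 0.173 after the GC and length correction and lay between 0.194 and 0.344 (without ASO_CTRL replicate 1) with 1 library left out. That of the sensors lay between 0.421 and 0.616, that of the signalling factors between 0.062 (without ASO_CTRL replicate 3) and 0.211, and that of the effectors between 0.112 (without ASO_LINC replicate 3) and 0.364 (without ASO_CTRL replicate 1). With the low-count genes kept, the effectors' median was 0.317, and with the correction and the block that of the signalling factors was 0.059. The causes were not tested.

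Whether replicate numbers pair the libraries could not be decided. Deviations of same-numbered libraries from their condition means correlated at 0.059, -0.149 and -0.18, and not every library correlated best with its own number. With 3 libraries per condition these deviations depend on each other, and ASO_LINC replicate 3 stood apart, so pairing by number is not excluded. The replicate block lowered the members called from 4 to 2 (ISG20 and OAS1, both higher), the other pathway genes called to 3 (SERPING1, TMEM173 and TNFAIP3) and all genes called from 1106 to 656. Calls over all genes also moved to 1597 with DESeq2, 1715 after the GC and length correction, 2465 at an adjusted p below 0.05 and between 359 and 2616 with 1 library left out. Depth limits members under about 5 CPM, such as USP18, SAMD9L and GBP2, most in ASO_LINC replicate 3.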
